A study of Nicrophorus vespilloides with 60 samples.

Results

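Larvae of the burying beetle *Nicrophorus vespilloides* from populations that had evolved without parental care (NC_POP) or with it (FC_POP) were compared after both had been raised with care in the full care environment (FC_ENV). The comparison held 11 libraries of NC_POP FC_ENV, 6 from line N1 and 5 from line N2, and 12 libraries of FC_POP FC_ENV, 6 from line F1 and 6 from line F2. These were all 23 of the 46 RNA libraries whose labels name the full care environment, and the other 23 came from larvae raised without care (NC_ENV). The labels name 60 samples in all, of which 14 are bisulfite libraries that were not analysed here. The question was which differences in expression remain between the populations when the current environment is the same.

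The lines N1 and F1 belong to block 1 and the lines N2 and F2 to block 2, and all 4 were founded from the same interbred wild stock. Parents were of generation 29, and first instar larvae were collected 80 h after pairing. In FC_ENV both parents stayed with the brood, whereas in NC_ENV both had been removed at 53 h. One library held RNA from 4 pooled heads of 1 family. The families of a line share its history, and each population had only 2 lines, so that the p-values below measure the spread among families and not among evolved lines.

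Burying beetles breed on the carcass of a small vertebrate, which the parents clean, preserve with oral and anal fluids and defend, and parents feed begging larvae with regurgitated food. Larvae without parents must enter the carcass, digest it and deal with its microbes alone. Insect larval heads hold the brain, the antennae and mouthparts with their chemosensory organs, muscle and the epidermis, which lays down new cuticle before each moult. Cytochrome P450 enzymes detoxify foreign compounds, odorant-binding proteins carry odorants to sensory neurons, and hsp70 chaperones refold proteins under stress.

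The library totals lay between 108993615 and 128952691 counts in NC_POP and between 108418440 and 136956219 counts in FC_POP. Libraries of 1 line were not copies of each other, since their counts differed by a chi-square of at least 211 per degree of freedom over 55 pairs. The table names genes by number only. A symbol and product were paired with an identifier for 82 genes, which the study listed as differentially expressed without care in NC_POP but not in FC_POP. The study called such genes relative to FC_POP FC_ENV, so that the list can hold differences between the populations as well as responses to care. That list was drawn up partly on the FC_POP FC_ENV libraries used here and partly on the libraries raised without care. Neither the direction of its genes nor their share of low p-values is therefore independent evidence. The values of listed genes without care, given below, are not independent support either. With products known for these 82 genes only, the label of the tissue could not be checked against marker genes. Fewer cells of a type cannot be told apart from less RNA per cell. Reads may also be divided among near-identical copies in families such as hsp70, cytochrome P450 and cuticle proteins, so that the values of single members are uncertain.

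When both populations were raised with care, 1 gene of the 11623 tested was a differentially expressed gene (DEG, edgeR quasi-likelihood test, Benjamini-Hochberg adjusted p under 0.01 and at least a 2-fold change), which is 0.0086%. It encodes a coiled-coil domain-containing protein 12 and was higher in NC_POP. At an adjusted p under 0.05 and any fold, 8 genes passed (0.0688%), 6 of them higher and 2 lower in NC_POP. At an unadjusted p under 0.05, 450 genes were higher (3.87%) and 400 lower (3.44%) in NC_POP, where 581 in all are expected if no gene differs. The median absolute log2 fold change was 0.11 with a median standard error of 0.15, and for 9064 genes (78.0%) the 95% interval lay within a 2-fold change either way. In 0 genes did all NC_POP libraries lie on 1 side of all FC_POP libraries.

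The DEG count depended on the tool. DESeq2 called 14 genes (0.121%), 10 higher and 4 lower in NC_POP, of which 7 were on the study's list of 82. That overlap is no independent support, since the list was chosen partly on the same FC_POP FC_ENV libraries. A fit of all 46 libraries called 5. The count of 1 became 3 without library F1_16 and 2 without either F2_27 or F2_31. The coiled-coil gene was called in 32 of 32 alternative fits that held both blocks, and in neither block alone, where its adjusted p (edgeR) was 0.0367 in block 1 and 0.107 in block 2.

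The coiled-coil domain-containing protein 12 gene (gene1222, LOC108566886) encodes a protein known in other animals as a component of the spliceosome, the machinery that removes introns. Its normalised level was 14.9, 13.3, 11.6, 10.99, 14.02 and 12.4 CPM (counts scaled to a common library size) in the 6 families of N1, against 6.52, 4.30, 6.40, 5.34, 9.09 and 6.07 CPM in those of F1. In block 2 it was 15.3, 18.3, 6.18, 12.2 and 10.6 CPM in N2, against 4.96, 4.58, 3.85, 3.65, 6.10 and 6.42 CPM in F2. Thus 10 of 11 NC_POP libraries lay above every FC_POP library, and the exception, 1 family of N2, lay within the FC_POP range. The mean was 12.7 ± 3.11 CPM in NC_POP (SD, n = 11) and 5.61 ± 1.501 CPM in FC_POP (SD, n = 12), a 2.27-fold difference (log2 fold change 1.18, SE 0.15, edgeR adjusted p = 8.71e-04). The log2 fold change was 1.03 between N1 and F1 and 1.34 between N2 and F2. In the libraries raised without care, the log2 fold change was 0.87 (edgeR adjusted p = 0.0185). These are separate libraries of the same lines, but the study's list, which holds this gene, was chosen partly on them.

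**Figure D1:**
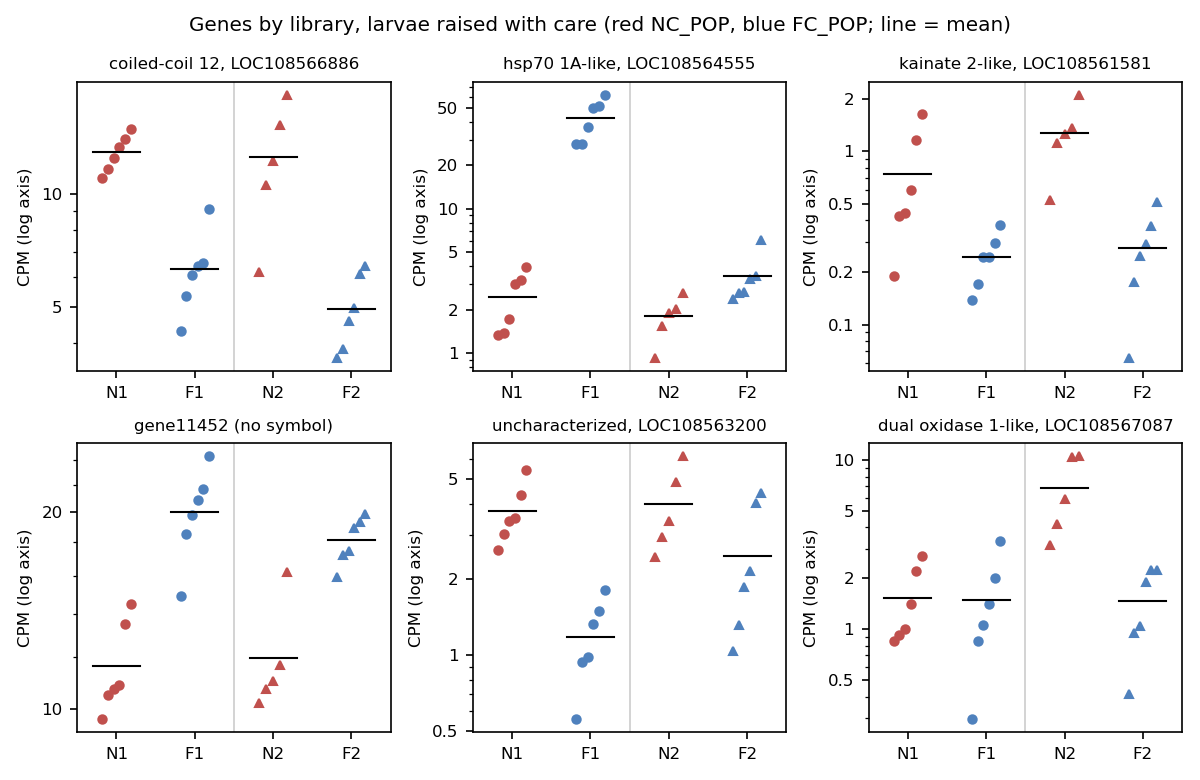
CPM of 6 genes (log axes) in each library of larvae raised with care, by line in the order N1, F1, N2 and F2. NC_POP is red and FC_POP blue, with circles for block 1, triangles for block 2 and a black line at the mean of a line. The coiled-coil gene LOC108566886 is higher in both NC_POP lines (means 12.9 and 12.5 CPM) than in F1 and F2 (means 6.29 and 4.93 CPM), whereas the hsp70 gene LOC108564555 stands high in F1 alone (mean 42.8 CPM).

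The second gene with an adjusted p under 0.01, gene11452, has no symbol in the sources used here and was lower in NC_POP by less than 2-fold. It had 10.9, 10.7, 9.65, 10.5, 14.5 and 13.5 CPM in N1, against 21.7, 24.4, 19.8, 14.9, 18.5 and 20.9 CPM in F1, and 11.03, 10.7, 16.2, 11.7 and 10.2 CPM in N2, against 15.9, 18.9, 19.9, 17.5, 17.2 and 19.3 CPM in F2. All but 1 of the NC_POP libraries lay below every FC_POP library. The log2 fold change was -0.70 (SE 0.09, edgeR adjusted p = 8.71e-04). Without care the difference was smaller, at -0.20 (unadjusted p = 0.184 in edgeR).

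The heat shock 70 kDa protein 1A-like gene (gene9919, LOC108564555), an inducible chaperone, was lower in NC_POP with a log2 fold change of -2.59 (SE 0.47, edgeR adjusted p = 0.0238), which misses the threshold of 0.01. DESeq2 called it (adjusted p = 1.22e-07), also after ashr shrinkage (log2 fold change -2.29). Of the 4 lines, F1 alone was high. The 6 families of N1 had 1.72, 1.34, 3.20, 1.37, 3.03 and 3.97 CPM, against 50.2, 27.97, 36.8, 61.8, 51.8 and 28.3 CPM in F1. In block 2 the families of N2 had 2.61, 2.02, 1.54, 1.89 and 0.926 CPM, against 6.09, 2.37, 2.65, 3.42, 3.27 and 2.61 CPM in F2. F1 thus stood above all 3 other lines, and N2 and F2 overlapped. Between N1 and F1 the log2 fold change was -4.13 (SE 0.35, edgeR adjusted p = 9.81e-07), and between N2 and F2 it was -0.92 (SE 0.33, edgeR adjusted p = 0.291). The difference between the blocks was itself called, at 3.21 on the log2 scale (edgeR adjusted p = 0.00251). F1 also stood apart without care, where its mean was 36.4 CPM and those of N1, N2 and F2 were 4.54, 4.69 and 6.51 CPM. The gene with the identifier next to it, gene9918, which has no symbol and was chosen after its values were seen, ran from 0.409 to 1.74 CPM in N1 and from 1.69 to 4.40 CPM in F1, with a log2 fold change of -1.88 in block 1 (edgeR adjusted p = 0.0371) and -0.84 in block 2. Its adjusted p in block 1 (edgeR) was under 0.05 in 13 of 23 fits that left out 1 library and ran from 0.00555 to 0.0985.

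The glutamate receptor ionotropic kainate 2-like gene (gene765, LOC108561581) encodes a ligand-gated ion channel of the family that carries excitatory signals at synapses. It had 0.444, 0.595, 1.17, 1.64, 0.191 and 0.423 CPM in N1, against 0.138, 0.245, 0.245, 0.377, 0.171 and 0.295 CPM in F1. In block 2 it had 2.12, 0.523, 1.27, 1.12 and 1.36 CPM in N2, against 0.513, 0.0642, 0.291, 0.249, 0.371 and 0.177 CPM in F2. N2 and F2 did not overlap, N1 and F1 did, and 8 of 11 NC_POP libraries lay above every FC_POP library. The pooled log2 fold change was 1.88 (SE 0.35, edgeR adjusted p = 0.0305), with 1.60 in block 1 and 2.20 in block 2, and without care it was 0.83 (edgeR adjusted p = 0.285). DESeq2 called the kainate receptor (adjusted p = 9.50e-05), also after ashr shrinkage (log2 fold change 1.67). Its adjusted p in edgeR was under 0.05 in 10 of 23 fits that left out 1 library and ran from 0.0114 to 0.0871. It was not when F1_14, F1_15, F1_16, F1_18, F2_28, F2_31, F2_32, F2_34, N1_25, N1_26, N2_16, N2_18 or N2_24 was left out. For the hsp70 gene it was under 0.05 in 18 of 23 fits and ran from 0.0139 to 0.0753, the exceptions being those without F2_26, N1_25, N1_26, N1_27 or N1_29.

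The other 4 genes with an adjusted p under 0.05 (edgeR) have no symbol here and were higher in NC_POP, with log2 fold changes from 0.53 to 1.09. All 8 genes had the same sign in both blocks, as had 41.4% of all genes, and in the libraries raised without care. The 8 were chosen on both blocks pooled, and the libraries without care come from the same 4 lines. Neither agreement is therefore independent support. Without care, 7 of the 8 had an unadjusted p under 0.05, gene11452 being the exception, where 15.8% of all genes had such a p. The number of DEGs between the populations raised without care was 1 (0.0086%), a gene other than these 8.

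Among the 82 listed genes, 79 passed the filter on low counts and 3 did not, namely an odorant-binding protein (LOC108567230), a juvenile hormone acid O-methyltransferase-like gene (LOC108565348) and an uncharacterized gene (LOC108564450). Of the 79, 1 was a DEG and 3 had an adjusted p under 0.05. An unadjusted p under 0.05 was found for 18 (22.8%), 13 higher and 5 lower in NC_POP, beside the 3.87% and 3.44% over all genes. The median log2 fold change was 0.18, where that of all genes was -6.36e-04. For 34 of the 79 the sign differed between the blocks, a smaller share than over all genes, where it was the same for only 41.4%. No result about these genes can be read from the shares, since the list was chosen partly on the FC_POP FC_ENV libraries tested here.

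With care, 3 listed genes described here were read in 1 population only. Each passed the filter on low counts only through that population, so that its p-values are not independent support for a difference. The inducible metalloproteinase inhibitor protein-like gene (gene6455, LOC108560730), of a kind that in other insects blocks bacterial metalloproteinases, had 17, 17, 15, 23 and 9 counts in N2 and 9, 0, 0, 0, 2 and 2 counts in N1, against 0 counts in all 12 FC_POP libraries. Without care N2 held 19, 4, 56, 69, 0 and 21 counts and N1 held 11 and 5 counts in 2 families, against 2 counts in 1 family of F1 and 0 in F2. The reads came mostly from N2, and the level was low even there. With care the adjusted p was 0.0680 in edgeR and 0.00398 in DESeq2, which called the gene, though not after ashr shrinkage. An uncharacterized gene (gene3160, LOC108557038) had 91, 328, 0, 145 and 95 counts in N2, 20 counts in 1 family of N1 and 0 in the other 5, against 0 in all 12 FC_POP libraries (adjusted p = 0.180 in edgeR and 0.178 in DESeq2). Without care it had 6, 10, 26, 56, 74 and 38 counts in N2 and 14, 14 and 4 counts in 3 families of N1, against 4 counts in 1 family of F2 and 0 in F1.

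The CREG1-like gene (gene7942, LOC108562373), related to a secreted glycoprotein of lysosomes in mammals, showed the opposite pattern. It had 0 counts in all 11 NC_POP libraries, against 4, 0, 12, 4, 22 and 3 counts in F1 and 15, 4, 5, 0, 0 and 20 counts in F2. In the libraries raised without care it had 0 counts in both NC_POP lines, against 8 and 19 counts in 2 families of F1 and 15, 18 and 8 counts in 3 families of F2. The adjusted p with care was 0.170 in edgeR and 0.00739 in DESeq2, which called the gene, though not after ashr shrinkage. The gene passed the filter only through FC_POP libraries, and it was tested in only 20 of 23 fits that left out 1 library. At these totals a count of 0 allows up to 3 counts in a library, by counting error only and if each count is 1 independent read. Of the low counts, 40.1% could be divided by 4 (25% among whole numbers in general), so that the bound may be higher. Over all genes, 210 had counts in NC_POP alone and 235 in FC_POP alone, and 5 and 2 of these passed the filter.

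**Figure D2:**
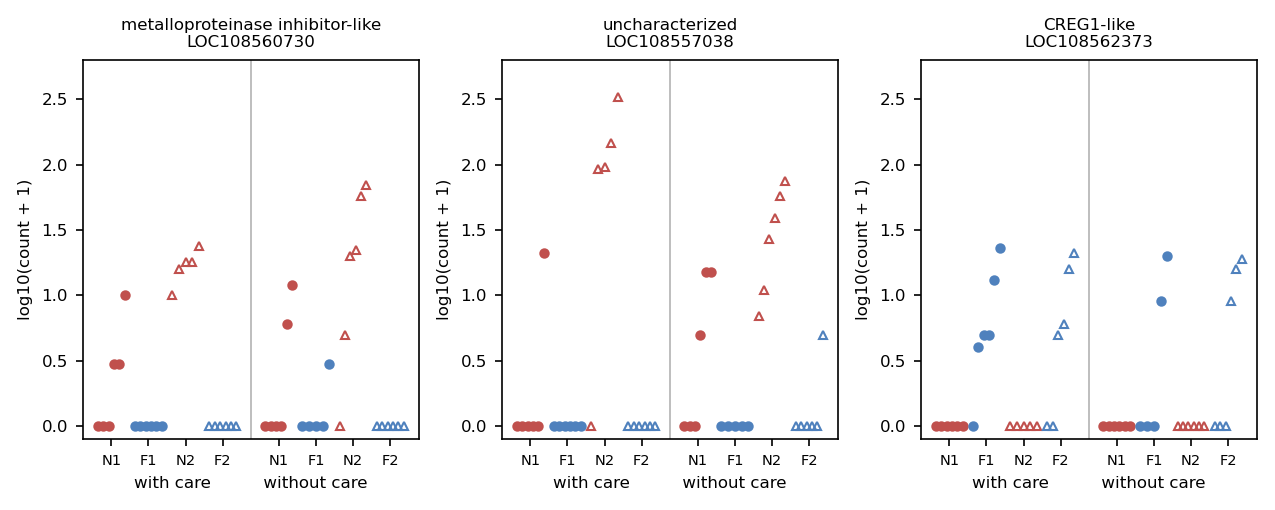
Counts per library, as log10(count + 1), of 3 listed genes by line, larvae raised with care on the left of each panel and without care on the right (NC_POP red, FC_POP blue, filled circles block 1, open triangles block 2). The metalloproteinase inhibitor-like gene and LOC108557038 were read mainly in N2, and the CREG1-like gene had 0 counts in every N1 and N2 library.

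The receptors on the list comprised 4 genes, of which the kainate 2-like receptor had an unadjusted p under 0.05 (beside 3.87% higher and 3.44% lower over all genes) and none was a DEG (0.0086% of all genes). The orexin receptor type 2-like gene (LOC108567943), whose mammalian relatives bind peptides that regulate feeding and arousal, had a mean of 0.0591 CPM in NC_POP and 0.178 CPM in FC_POP and a log2 fold change of -1.5 (SE 0.92). The trace amine-associated receptor 5 gene (LOC108561576), a G protein-coupled receptor of amines, had 1.14 ± 0.58 CPM in NC_POP (SD, n = 11) and 0.791 ± 0.57 CPM in FC_POP (SD, n = 12), a log2 fold change of 0.60 (SE 0.37). For the receptor-type guanylate cyclase gcy-28-like gene (LOC108561283), which makes the second messenger cGMP, it was 0.93 (SE 0.66). All 4 kept their sign in both blocks, and the 3 without a low p had intervals that hold both no change and a 2-fold change. The odorant-binding protein that passed the filter, a general odorant-binding protein 19d-like gene (gene7698, LOC108562103), ran from 0.0338 to 2.78 CPM in NC_POP (median 0.466) and from 0 to 0.845 CPM in FC_POP (median 0.136), and 2 of 11 NC_POP libraries lay above every FC_POP library. Its log2 fold change was 1.79 (SE 0.74, unadjusted p = 0.0247 and adjusted p = 0.586 in edgeR).

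Of 5 detoxification enzymes, 0 had an unadjusted p under 0.05 (edgeR), beside 3.87% higher and 3.44% lower over all genes, and DESeq2 called none of them (0.121% of all genes). The 4 cytochrome P450 genes all had log2 fold changes above 0, between 0.14 and 0.93. The most abundantly read of them in CPM, cytochrome P450 4C1-like (gene707, LOC108560973), had 30.2 ± 15.5 CPM in NC_POP (SD, n = 11) and 20.7 ± 15.3 CPM in FC_POP (SD, n = 12), with a log2 fold change of 0.55 (SE 0.36), made up of 1.11 in block 1 and -0.09 in block 2. Cytochrome P450 9e2-like (gene11963, LOC108566901) was at 19.3 CPM in NC_POP and 18.6 CPM in FC_POP, and its 95% interval lay within a 2-fold change. The UDP-glucuronosyltransferase 2B13-like gene (LOC108564048), which tags toxins with sugar acids, had a log2 fold change of -0.10 (SE 0.59). The sign differed between the blocks for 4 of the 5 genes, and it also differed for most of all genes, being the same for only 41.4%. The farnesol dehydrogenase-like gene (gene8756, LOC108563277), which catalyses a step of juvenile hormone synthesis in insects, behaved likewise, with 0.16 pooled, 0.94 in block 1 and -0.72 in block 2 on the log2 scale.

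Of the 4 defence proteins, 0 had an unadjusted p under 0.05 (edgeR), again beside 3.87% higher and 3.44% lower over all genes, and DESeq2 called none of them, where it called 0.121% of all genes. Defensin (gene4265, LOC108558285), an antimicrobial peptide, had a median of 0.0334 CPM and a range of 0 to 5.69 CPM in NC_POP, against a median of 0.792 CPM and a range of 0.0459 to 5.09 CPM in FC_POP. Its log2 fold change of -1.94 (SE 1.32) had the widest interval of the 4, and without library N1_23, which had the 5.69 CPM, it was -4.16 (adjusted p = 0.136 in edgeR). Lysozyme C-like (gene11650, LOC108566479), which cleaves bacterial cell walls, had 8.55 ± 4.91 CPM in NC_POP (SD, n = 11) and 8.72 ± 7.82 CPM in FC_POP (SD, n = 12), with a log2 fold change of 1.06 in block 1 and -0.74 in block 2. The C-type lectin 37Db-like gene (LOC108560296), which binds sugars on microbes, and the proclotting enzyme-like gene (LOC108558248), a serine protease of haemolymph clotting, had log2 fold changes of -0.34 (SE 0.29) and 0.05 (SE 0.41).

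Dual oxidase 1-like (gene12193, LOC108567087), an enzyme that makes hydrogen peroxide and in other insects acts in gut defence and cuticle cross-linking, was highest in N2. N2 had 3.16, 5.91, 10.5, 10.5 and 4.19 CPM, against 2.25, 0.954, 1.91, 2.24, 1.04 and 0.413 CPM in F2, so that the lines did not overlap. N1 had 1.01, 0.923, 1.41, 2.71, 2.22 and 0.853 CPM, against 0.294, 2.003, 0.857, 1.06, 1.41 and 3.34 CPM in F1, so that every N1 library lay within the range of F1. The log2 fold change was 2.22 in block 2 (SE 0.52, edgeR adjusted p = 0.0865) and 0.03 in block 1 (SE 0.49), with an unadjusted p of 0.00548 for the difference between the blocks (edgeR), where 13.3% of all genes had such a p under 0.05. Without care N2 was also the highest line, at a mean of 9.23 CPM, with 2.51, 3.11 and 1.75 CPM in N1, F1 and F2. The study's list, which holds this gene, was chosen partly on those libraries. NADPH oxidase 5 (gene10047, LOC108564697), the other oxidase, had 131 ± 73.1 CPM in NC_POP (SD, n = 11) and 152 ± 93.2 CPM in FC_POP (SD, n = 12).

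Among 5 genes of sugar transport and metabolism, glucose transporter type 1-like (gene1983, LOC108569492) was lower in NC_POP, at 2.20 ± 0.87 CPM (SD, n = 11), than in FC_POP, at 3.82 ± 2.62 CPM (SD, n = 12), by an unadjusted p alone. Its log2 fold change was -0.76 (SE 0.33, unadjusted p = 0.0302 and adjusted p = 0.609 in edgeR), with -0.69 in block 1 and -0.85 in block 2. The trehalose transporter Tret1-like gene (LOC108564221), which moves the main blood sugar of insects across membranes, the pyruvate kinase gene (LOC108560350), which ends glycolysis, and both glucose dehydrogenase genes (LOC108562155 and LOC108561928) had log2 fold changes between -0.85 and 0.32, none with an unadjusted p under 0.05.

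**Figure D3:**
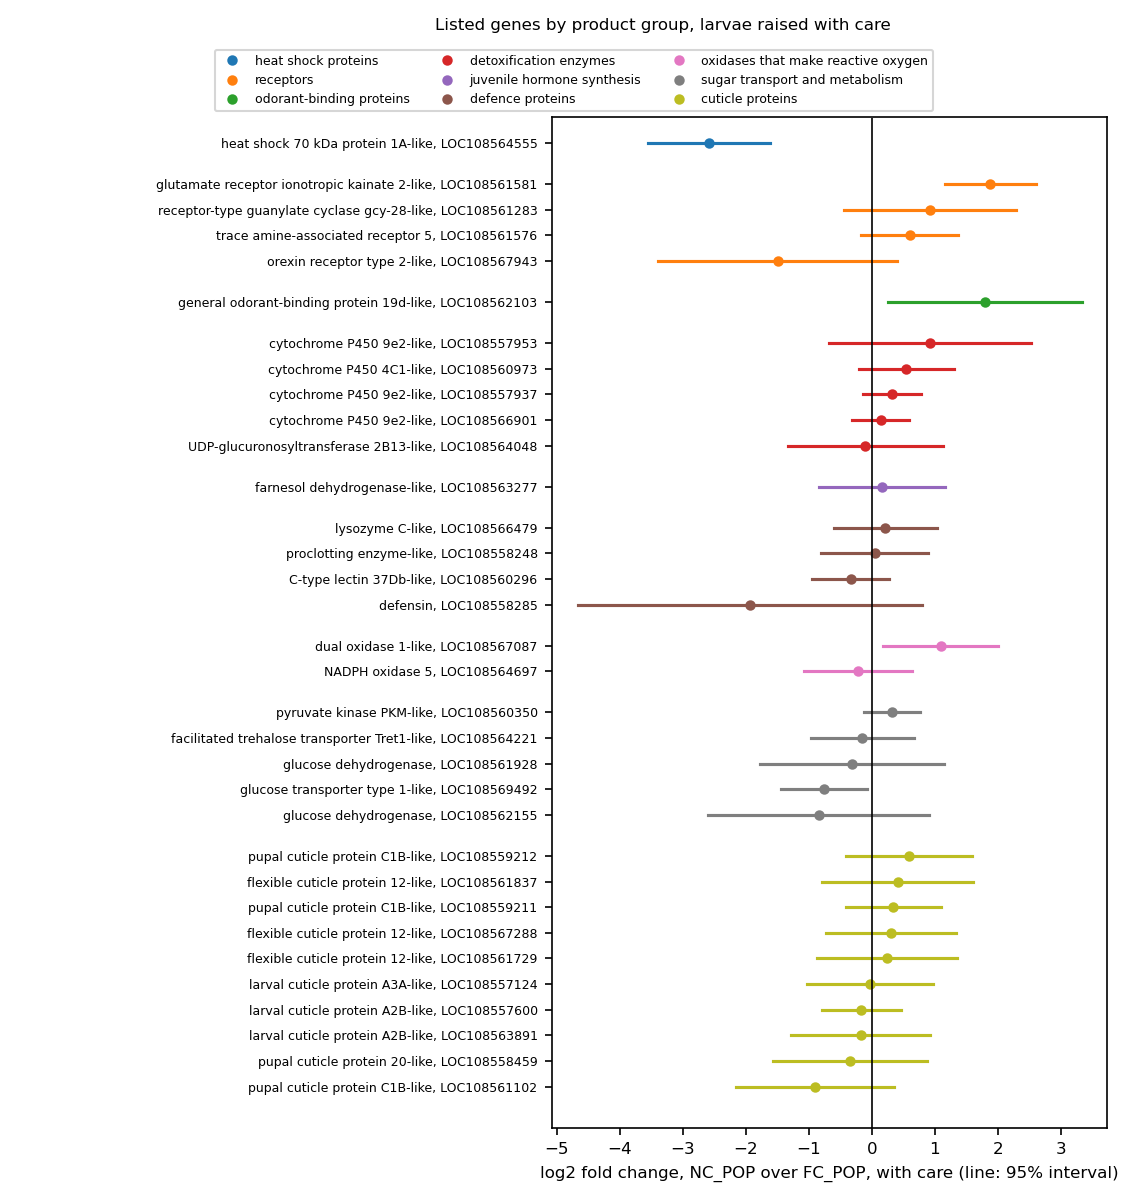
Log2 fold change between NC_POP and FC_POP raised with care (points, positive where NC_POP was higher) with 95% intervals (lines) for the tested genes of 9 product groups. The kainate 2-like receptor, at 1.88, and the hsp70 gene, at -2.59, lie farthest from 0 relative to their intervals, and the intervals of all 10 cuticle genes hold 0.

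Among the uncharacterized genes on the list, 2 that DESeq2 called did not pass in edgeR. LOC108565191 (gene10490) ran from 0.148 to 0.699 CPM in NC_POP (median 0.451) and from 0 to 0.283 CPM in FC_POP (median 0.0834), with 7 of 11 NC_POP libraries above every FC_POP library and a log2 fold change of 2.17 (SE 0.47, edgeR adjusted p = 0.0739). Without care the log2 fold change was 2.49 (edgeR adjusted p = 0.0715). LOC108563200 (gene8705) had 3.51, 2.62, 3.02, 4.35, 5.44 and 3.41 CPM in N1, against 0.942, 1.495, 1.81, 0.557, 1.33 and 0.984 CPM in F1, without overlap. It had 3.42, 6.17, 2.45, 4.86 and 2.96 CPM in N2, against 2.16, 1.86, 4.41, 4.04, 1.04 and 1.32 CPM in F2, which overlapped, and its pooled log2 fold change was 1.19 (SE 0.27, edgeR adjusted p = 0.111). The log2 fold change of LOC108563200 was 1.65 in block 1 and 0.68 in block 2, and without care it was smaller, at 0.42 (edgeR adjusted p = 0.435). All 4 long noncoding RNAs on the list had log2 fold changes above 0, from 0.60 to 1.36. An unadjusted p under 0.05 was found for 3 of them, beside 3.87% higher and 3.44% lower over all genes, and their adjusted p was 0.556 or more (edgeR). A vicilin-like gene (LOC108569073) was at 1.92 (SE 0.58) and an axonemal dynein heavy chain 8 gene (LOC108561634), a motor protein of cilia, at -2.15 (SE 0.71), with adjusted p of 0.337 and 0.397 in edgeR. The dynein gene (gene7279) ran from 0.229 to 0.880 CPM in N1, against 0.570, 8.83, 3.59, 0.462, 0.396 and 10.7 CPM in F1, and from 0 to 0.469 CPM in N2, against 0.0970 to 0.853 CPM in F2. In F1, 3 families were above all other lines and the other 3 lay within the range of N1.

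The 10 cuticle protein genes, structural proteins of the larval and pupal exoskeleton, varied among families of a line. In edgeR 0 of 10 had an unadjusted p under 0.05, beside 3.87% higher and 3.44% lower over all genes, and DESeq2 called none (0.121% of all genes). A log2 fold change above 0 was found for 5 and below 0 for 5. The sign differed between the blocks for 7, near the share over all genes, of which 41.4% had the same sign. Larval cuticle protein A2B-like (gene3661, LOC108557600) had 420 ± 170 CPM in NC_POP (SD, n = 11) and 469 ± 226 CPM in FC_POP (SD, n = 12) and a log2 fold change of -0.17 (SE 0.30). Between N1 and F1 the log2 fold change of a pupal cuticle protein C1B-like gene (LOC108561102) was -2.09 (unadjusted p = 0.00947 and adjusted p = 0.266 in edgeR), and that of another gene of this name (LOC108559212) was 1.60 (unadjusted p = 0.00848 and adjusted p = 0.252 in edgeR). In block 2 they were 0.36 and -0.58. The summed level of the 10 genes ran from 697 to 7581 CPM in NC_POP and from 944 to 7941 CPM in FC_POP, that is over nearly the same range in both. Families of the same line differed by 10.9-fold in N1, 4.85-fold in F1, 2.57-fold in N2 and 8.41-fold in F2. In N1 and F1 the range rested on 1 library, being 2.56-fold in N1 without N1_27 and 1.60-fold in F1 without F1_18. In F2 it was still 5.12-fold without F2_31, and in N2 it was 1.96-fold without N2_18. These leave-outs were chosen after seeing the data. Library N1_27 was the lowest of all 23 for 8 of the 10 genes, and larval cuticle protein A2B-like (gene9321, LOC108563891) varied 690-fold within N1 when it was included.

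**Figure D4:**
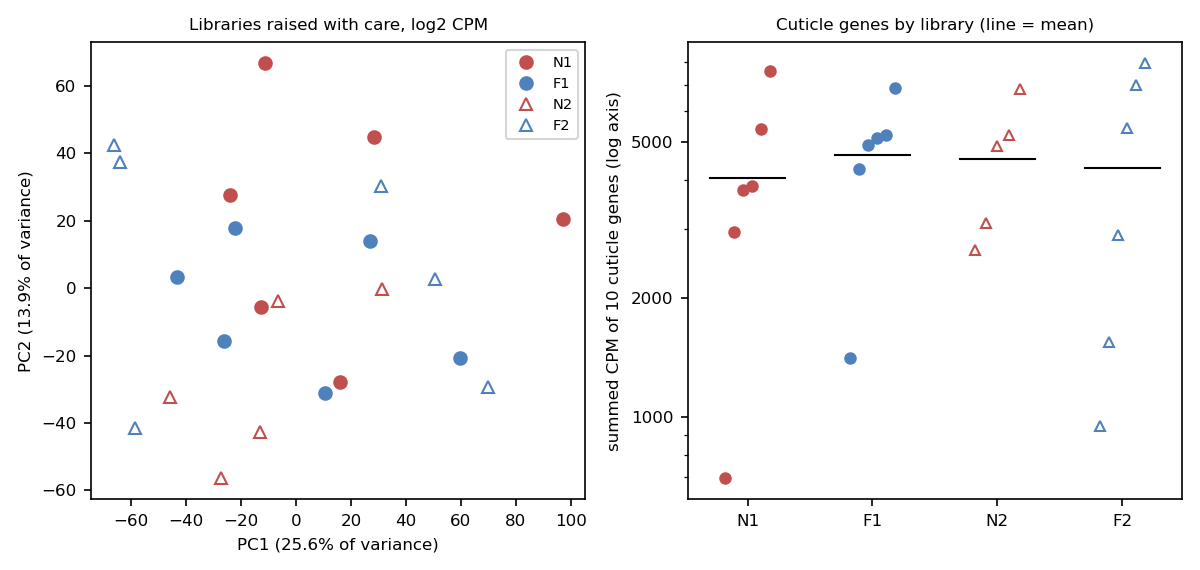
Left, libraries raised with care on the first 2 principal components of log2 CPM (axes with the share of variance), N1 and N2 in red, F1 and F2 in blue, filled circles for block 1 and open triangles for block 2. Right, summed CPM of 10 cuticle protein genes in each library (log axis, black line at the mean of a line). Red and blue points overlap on both components, N1_27 lies farthest right at 97.1 on the first, and the cuticle sums span 697 to 7941 CPM.

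Across all genes, the libraries of both populations overlapped on the first 2 principal components. Population took up 3.69% of the variance between libraries (permutation test within blocks, p = 0.635) and block 5.90%. The first principal component held 25.6% of the variance, and line accounted for 5.70% of its spread. For the next 5 components this share was 29.02%, 8.41%, 10.2%, 47.8% and 54.1%, the last 2 of these components holding 4.84% and 4.32% of the variance. The 4 libraries with the highest scores on it, N1_27, F2_31, F1_18 and F2_32, were also the 4 with the lowest cuticle sums. Each library was left out in turn, these 4 included, but no fit left out all 4 or adjusted for this variation among families. Beyond those single leave-outs, whether it moved any value above was not tested.

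Families of NC_POP were not shown to vary more or less than those of FC_POP. The mean distance of a library from the centroid of its line was 73.4 ± 15.9 in NC_POP (SD, n = 11) and 80.5 ± 11.2 in FC_POP (SD, n = 12), on the scale of log2 CPM over all tested genes, a difference of -7.05 (two-sided permutation test, p = 0.240). The squared coefficient of variation (CV2) of a gene had a median of 0.0347 in NC_POP and 0.0440 in FC_POP over 10237 genes, and the median log2 ratio was -0.26 (two-sided permutation test, p = 0.205). By line, the distances ran from 71.3 to 114 in N1 and from 67.1 to 83.7 in F1, which overlapped. In block 2 they ran from 57.5 to 69.8 in N2 and from 71.0 to 100 in F2, so that every N2 library lay below every F2 library. Both p-values turned on library N1_27, which lay at a distance of 114 from its centroid. Without it the difference in distance was -12.9 (p = 0.00830 in 10000 permutations) and the log2 ratio of CV2 was -0.47 (p = 0.0200 in 200 permutations), each with NC_POP the less variable. Of 23 fits that left out 1 library, this was the most extreme for both measures, and it was singled out after seeing the data. Leaving out the NC_POP library farthest from its centroid favours a smaller spread in NC_POP, so that no conclusion is drawn from these p-values.

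The populations were then compared within each block, by contrasts from 1 fit of all 23 libraries with a shared estimate of the spread. N1 and F1 share no library with N2 and F2, but through that estimate a library of 1 block can move the calls of the other. There were 3 DEGs between N1 and F1 (0.0258%), namely the hsp70 gene, gene9304 and 1 more gene with no symbol, and 1 DEG between N2 and F2 (0.0086%), gene10502, with 0 genes called in both. At an unadjusted p under 0.05, 1293 and 1122 genes passed in edgeR, 161 in both blocks, of which 56 had the same sign. DESeq2 called 19 and 37 genes. Over all 11623 genes the sign was the same in 41.4%, and Pearson's r between the log2 fold changes of the blocks was -0.25 and Spearman's rho -0.22. This is a description across genes, which are not independent replicates.

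Gene9304, which has no symbol, was high in N1. It had 6.37, 10.1, 5.99, 0.581, 11.2 and 3.14 CPM in N1, against 0.397, 0.0725, 0.459, 0.226, 0.147 and 0.169 CPM in F1, so that every N1 library was above every F1 library. In block 2 the order was the other way, with 0.592, 0.820, 0.371, 0.399 and 0.502 CPM in N2, against 2.06, 2.02, 2.82, 3.20, 0.302 and 0.253 CPM in F2, and those lines overlapped. The log2 fold change was 4.66 (SE 0.71, edgeR adjusted p = 0.00477) in block 1 and -1.72 in block 2. It was called in block 1 in 13 of 23 fits that left out 1 library, and not in those without F1_14, F1_15, F1_16, F1_17, F1_18, F1_20, N1_22, N1_23, N1_25 or N1_27. The count of DEGs between N1 and F1 was 1 without F1_15, F1_16 or F1_20.

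Gene10502, also without a symbol, was high in N2 alone. N2 had 3.61, 1.93, 2.81, 5.10 and 5.10 CPM, against 0.751, 0.550, 0.945, 0.440, 1.29 and 0.405 CPM in F2, while N1 ran from 0.346 to 0.925 CPM and F1 from 0.475 to 0.906 CPM. The log2 fold change in block 2 was 2.34 (SE 0.33, edgeR adjusted p = 0.00598), and it was called in 13 of 23 fits that left out 1 library. Without F1_20, F2_26, F2_27, F2_31, F2_34, N1_22, N1_29, N2_16, N2_21 or N2_24 it was not called, and the count of DEGs between N2 and F2 was then 0. Without care N2 ran from 2.20 to 4.84 CPM and F2 from 0.455 to 2.19 CPM.

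A difference between the blocks in the population contrast was called for 4 genes (0.0344%), the hsp70 gene, gene9304 and 2 genes with no symbol, and DESeq2 called 45. At an unadjusted p under 0.05 it was found for 1548 genes (13.3%). A line and its history cannot be told apart from its block in these comparisons, since each population had 1 line per block.

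**Figure D5:**
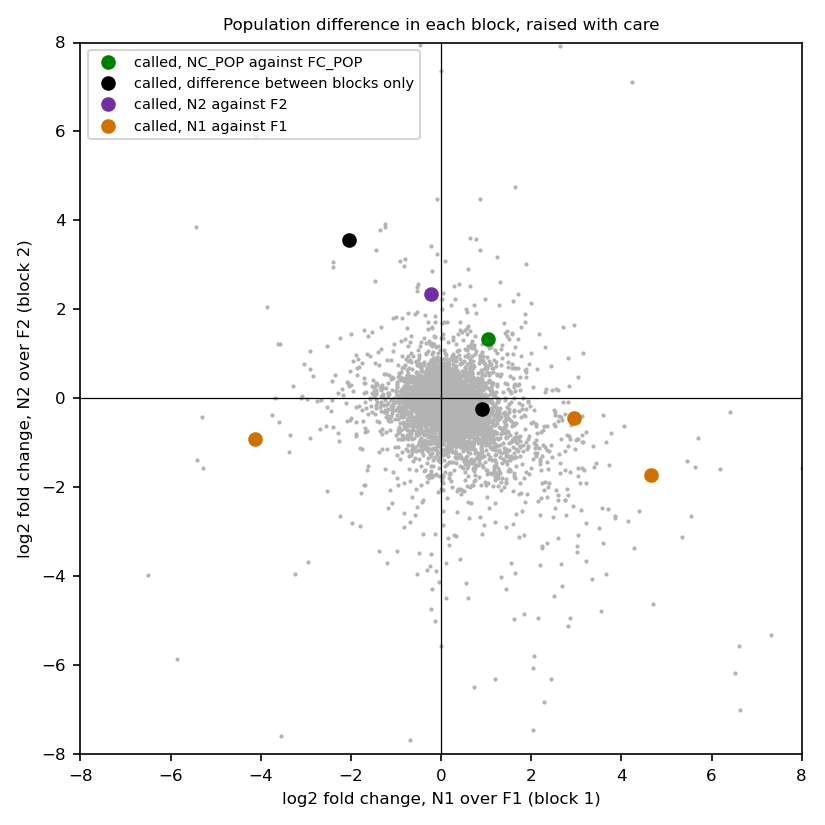
Log2 fold change of each tested gene between N1 and F1 (x axis) and between N2 and F2 (y axis), grey points, with called genes as large coloured points, positive where the NC_POP line was higher. The coiled-coil gene, at 1.03 and 1.34, lies in the upper right and the other called genes lie off the diagonal, and 8 genes lie outside the axes, which run from -8 to 8.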

How the data were processed

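RNA from 4 pooled larval heads per family was sequenced, and libraries were grouped by the population, line and environment in their labels. The authors trimmed reads (TrimGalore 0.5.0), mapped and quantified them on the RefSeq transcriptome of the species (StringTie 2.0.3, after HISAT2 2.1.0) and deposited whole-number counts per gene without normalisation. Of the deposited values from 1 to 100 in the libraries raised with care, 40.1% could be divided by 4 (25% among whole numbers in general), so that low counts move in steps. Of 13761 genes, 677 had 0 counts in all 23 libraries. The filter kept the 11623 genes that reached 15 counts in 10% or more of the libraries.

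The main test was the quasi-likelihood test of edgeR 4.0.16 (R 4.3.3) after TMM normalisation, with population and block as terms. A second fit had 1 mean per line. Adjusted p is by Benjamini-Hochberg over all genes tested, and a DEG had an adjusted p under 0.01 and an absolute log2 fold change of at least 1. Distances and components used log2 CPM with a prior count of 2. Variance shares came from vegan 2.7.1. Permutations kept the blocks and numbered 100000 for variance shares and distances and 1000 for CV2. Alternatives were DESeq2 1.42.0, also with ashr 2.2.63, other filters, thresholds and normalisation, no block term, each block alone, all 46 libraries, and each library left out. The steps were tested on simulated data.

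Named genes were the DEGs, the genes of 9 product groups of the study's Supplementary Data 1, and, of the genes called within or between blocks, up to 3 of the largest changes in each direction. At most 2 identifiers without a symbol are given for each direction, chosen after their values were seen, as were the other listed genes described. The libraries compared and the gene lists were chosen with earlier results of these data known. Intervals of counts cover counting error only.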

Additional observations from a re-analysis of the deposited data

Results flagged for a closer look

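Of 60 sets of values (15 measures in each of the 4 lines), 4 held 1 library that stood apart from the rest of its line by Dixon's criterion, and chance alone gives about 1 in 20. Library N1_27 lay at a distance of 114 from the centroid of N1, where the other 5 lay between 71.3 and 79.97. The hsp70 gene (gene9919) was at 6.09 CPM in F2_26, where the other F2 libraries lay between 2.37 and 3.42 CPM. Gene11452 was at 16.2 CPM in N2_18, where the other N2 libraries lay between 10.2 and 11.7 CPM. Gene9918 was at 1.74 CPM in N1_29, where the other N1 libraries lay between 0.409 and 0.851 CPM.

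The difference between the populations itself differed between the blocks for 4 genes (edgeR, a test of the difference of the log2 fold changes, block 2 minus block 1). It was 3.21 for the hsp70 gene (gene9919), -6.38 for gene9304, and -1.16 and 5.60 for 2 genes with no symbol.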

How the results depend on the processing

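The count of DEGs between NC_POP and FC_POP with care was 14 with DESeq2, 10 with ashr shrinkage, 4 at an adjusted p under 0.05, 2 with no fold minimum and 5 with all 46 libraries in the fit, and ran from 1 to 3 with 1 library left out. For N1 against F1, where 3 were called, DESeq2 gave 19, ashr 16, the adjusted p under 0.05 gave 6, no fold minimum 5, and there was 1 with the block's libraries alone, and 1 to 4 with 1 library left out. For N2 against F2, where 1 was called, DESeq2 gave 37, ashr 32 and the adjusted p under 0.05 gave 8, and leaving out 1 library gave 0 to 4, with 0 in 10 of 23 fits (1122 genes had an unadjusted p under 0.05 in edgeR). For the difference between blocks, where 4 were called, DESeq2 gave 45, ashr 40, the adjusted p under 0.05 gave 12 and leaving out 1 library 3 to 5. Without care the count was 42 with DESeq2 and 10 with all 46 libraries. Leaving out 1 library moved the difference in distance between -12.9 and -4.30 and the log2 ratio of CV2 between -0.47 and -0.17. With distances corrected for the number of libraries in a line, a setting chosen after seeing the data, the difference was -7.09 (permutation test, p = 0.274). Only uncalled genes changed sign. Without the block term lysozyme C-like and farnesol dehydrogenase-like were at -0.029 and -0.033. In block 2 alone the log2 fold changes were 0.37 for LOC108561102, -0.57 for LOC108559212, 0.077 for LOC108557600, -0.089 for LOC108560973, -0.21 for LOC108566901, -0.74 for LOC108566479 and -0.71 for LOC108563277. The cause of these changes was not tested. No paired analysis was possible, since the labels name no pairs and the library numbers of N1 and F1, or of N2 and F2, do not overlap. That a library is 1 family comes from the study's methods. Genes near 0 counts in most libraries pass the filter, and for these a few counts decide a fold change.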
